A study of Mus musculus with 6 samples.

Results

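Smad4 is the shared partner of the receptor-activated Smads. Bone morphogenetic protein (BMP) receptors phosphorylate Smad1 and Smad5, activin and TGF-beta receptors phosphorylate Smad2 and Smad3, and each kind enters the nucleus in a complex with Smad4 and binds promoters and enhancers of target genes. BMP signalling from epithelium and mesenchyme is needed for a tooth germ to pass the bud stage, and Msx and Dlx homeobox genes of the mesenchyme act downstream of it.

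The sites described here are the molar Smad4 peaks at gene boundaries, meaning peaks whose summit lay within 1 kb of the annotated start or end of a protein-coding gene. They number 1668 of the 34561 peaks in the molar Smad4 list and leave 32893 elsewhere. Their rule used position only, not the strength of a peak. Genes were taken from RefSeq on GRCm38.p6, whose chromosomes have the coordinates of mm10, the build of the lists. The reference was 21883 protein-coding genes on chromosomes 1 to 19, X and Y.

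Chromatin immunoprecipitation with sequencing used E13.5 embryos of wild-type CD1 mice, taking molar tooth germ with an antibody to Smad4, and also in molar with an antibody to pSmad1/5 and in limb with each antibody. All tissue was fixed with 1% formaldehyde for 15 min. Of 6 samples, 4 had a peak list and the 2 inputs were not used here. A whole tooth germ or limb holds epithelium, mesenchyme and other cells, whose contributions cannot be told apart. The number of embryos pooled per library was not stated. Each tissue and antibody had 1 library, so no difference below has a replicate check and no p-value was computed, and whether a difference between lists lies in the antibody, the tissue or the library cannot be told apart.

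Depth was unknown, since the lists hold no read counts. All 4 lists together held 123182 peaks. The molar Smad4 list was cut unevenly: the lowest score was 4 on autosomes 2, 5, 8, 9, 11 and 19, 3 on the other 13, 2 on X and 1 on Y, in each case rounded down. The score is the enrichment that the authors deposited for each peak. Values that depend on this are given separately for the 6 sparsely listed autosomes and the 13 others. The lowest scores of the other lists on each chromosome are not given here, so those lists may be uneven between chromosomes too.

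Promoter sequences show where the sites lie when they sit at a start. RefSeq promoter windows run from 250 bases before to 50 bases after a listed transcription start, on GRCm38.p6. Of the molar Smad4 sites at gene boundaries, 139 had the summit inside such a window, and 114 of them lay before that start. Of the 300 bases of a window 250 lie before the start, so this count follows the window and shows no preference for either side. Not every gene has a window in that table, and the sites of genes without one are not among the 139. A gene can have more than one listed start, so a position in a window can differ from the distance to the outermost gene boundary. The following windows are written 5′ to 3′ on the strand of the gene, and capitals mark the bases covered by the molar Smad4 peak. Gstp1 and Med26 carried peaks that were among the highest scoring in such windows. Gstp1 encodes a glutathione transferase, and its peak had a score of 5.34 with the summit 26 bases before the start. Med26 encodes a subunit of Mediator, and its peak had a score of 5.15 with the summit 66 bases before the start.
Gstp1 (chr19:4037863-4038162, minus strand): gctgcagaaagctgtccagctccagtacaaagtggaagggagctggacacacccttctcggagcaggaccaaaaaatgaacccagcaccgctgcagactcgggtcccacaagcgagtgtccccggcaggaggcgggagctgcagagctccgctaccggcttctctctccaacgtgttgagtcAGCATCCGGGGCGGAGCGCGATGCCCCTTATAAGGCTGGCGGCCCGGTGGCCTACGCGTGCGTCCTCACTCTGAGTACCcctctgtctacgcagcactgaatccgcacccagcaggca
Med26 (chr8:72548261-72548560, minus strand): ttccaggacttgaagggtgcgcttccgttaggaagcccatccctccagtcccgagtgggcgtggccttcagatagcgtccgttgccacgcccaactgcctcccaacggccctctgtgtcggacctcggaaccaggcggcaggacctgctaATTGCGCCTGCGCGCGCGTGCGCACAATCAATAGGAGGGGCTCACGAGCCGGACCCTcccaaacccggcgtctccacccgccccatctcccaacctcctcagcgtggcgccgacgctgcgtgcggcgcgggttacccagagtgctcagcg

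The next genes show different positions of a peak around a start. In Ndufa4 the summit lay 98 bases before the start, in Serpinh1 23 bases after it and in Mesd 48 bases before it. Ndufa4 encodes a protein first assigned to respiratory complex I, Serpinh1 the collagen chaperone Hsp47, and Mesd a chaperone of Wnt co-receptors.
Ndufa4 (chr6:11907401-11907700, minus strand): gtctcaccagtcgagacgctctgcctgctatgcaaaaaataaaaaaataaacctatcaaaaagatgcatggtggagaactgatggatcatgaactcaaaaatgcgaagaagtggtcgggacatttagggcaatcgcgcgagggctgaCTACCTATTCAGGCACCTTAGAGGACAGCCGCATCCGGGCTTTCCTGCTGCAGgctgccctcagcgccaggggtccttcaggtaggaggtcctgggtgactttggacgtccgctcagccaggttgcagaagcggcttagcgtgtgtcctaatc
Serpinh1 (chr7:99353190-99353489, minus strand): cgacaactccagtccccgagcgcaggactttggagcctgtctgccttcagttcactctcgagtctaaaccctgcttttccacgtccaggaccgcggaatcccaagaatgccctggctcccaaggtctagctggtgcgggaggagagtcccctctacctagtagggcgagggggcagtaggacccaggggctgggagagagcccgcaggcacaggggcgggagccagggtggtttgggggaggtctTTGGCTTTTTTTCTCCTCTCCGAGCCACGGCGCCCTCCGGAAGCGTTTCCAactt
Mesd (chr7:83883616-83883915, plus strand): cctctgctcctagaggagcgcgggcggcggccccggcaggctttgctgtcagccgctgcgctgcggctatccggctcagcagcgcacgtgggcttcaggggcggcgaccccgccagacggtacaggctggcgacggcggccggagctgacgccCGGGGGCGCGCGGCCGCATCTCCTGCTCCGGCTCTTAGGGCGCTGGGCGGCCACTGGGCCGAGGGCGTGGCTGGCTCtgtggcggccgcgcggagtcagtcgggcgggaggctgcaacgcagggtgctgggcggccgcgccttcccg

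The next windows carry sites that also overlapped a peak of another list. The Ipo13 site overlapped a limb Smad4 peak, and the Uchl5 and Otub1 sites each overlapped a molar pSmad1/5 peak. The Uchl5 site lies between 2 divergent starts and also falls in the window of Ro60. Ipo13 encodes an importin, and Uchl5 and Otub1 encode deubiquitinating enzymes.
Ipo13 (chr4:117914950-117915249, minus strand): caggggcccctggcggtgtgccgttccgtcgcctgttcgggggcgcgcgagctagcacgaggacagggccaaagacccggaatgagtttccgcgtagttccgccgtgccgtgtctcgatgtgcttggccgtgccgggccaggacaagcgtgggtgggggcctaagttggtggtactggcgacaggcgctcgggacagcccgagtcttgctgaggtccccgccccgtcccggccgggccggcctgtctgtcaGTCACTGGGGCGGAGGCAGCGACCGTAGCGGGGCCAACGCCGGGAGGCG
Uchl5 (chr1:143777028-143777327, plus strand): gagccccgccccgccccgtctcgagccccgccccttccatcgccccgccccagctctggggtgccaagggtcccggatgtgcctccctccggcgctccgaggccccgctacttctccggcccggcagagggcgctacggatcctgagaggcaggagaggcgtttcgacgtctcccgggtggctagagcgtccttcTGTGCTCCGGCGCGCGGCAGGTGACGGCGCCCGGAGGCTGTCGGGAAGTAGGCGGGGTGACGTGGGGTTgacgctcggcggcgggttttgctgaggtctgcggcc
Otub1 (chr19:7206235-7206534, minus strand): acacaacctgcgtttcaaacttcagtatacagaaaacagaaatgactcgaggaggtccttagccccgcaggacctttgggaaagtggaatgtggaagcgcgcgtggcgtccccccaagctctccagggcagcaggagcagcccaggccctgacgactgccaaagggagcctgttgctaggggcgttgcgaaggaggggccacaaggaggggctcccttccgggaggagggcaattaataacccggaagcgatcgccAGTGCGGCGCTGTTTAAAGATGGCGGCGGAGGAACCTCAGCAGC

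In the whole set of windows the molar Smad4 sites fell on less CpG-rich promoters than the sites of the other lists. For molar Smad4, 149 windows of 143 genes held a summit of a boundary site. Their median GC content was 59%, against 67% in molar pSmad1/5 windows, 66% in limb Smad4 windows, 66.3% in limb pSmad1/5 windows and 56.3% over all 21237 windows of protein-coding genes. A CpG ratio above 0.6, observed over expected from base composition, was found in 66.4% of molar Smad4 windows (99 of 149, 95% interval 58.3 to 73.96%). The share was 88.6% in molar pSmad1/5 windows (952 of 1074, 86.6 to 90.5%), 82.03% in limb Smad4 windows (79.5 to 84.4%), 82.2% in limb pSmad1/5 windows (79.1 to 84.99%) and 47.6% over all windows. The molar Smad4 interval lay below the intervals of the other 3 lists and above the share of all windows. These and the other binomial intervals here are exact (Clopper-Pearson) and cover counting error only.

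**Figure D1:**
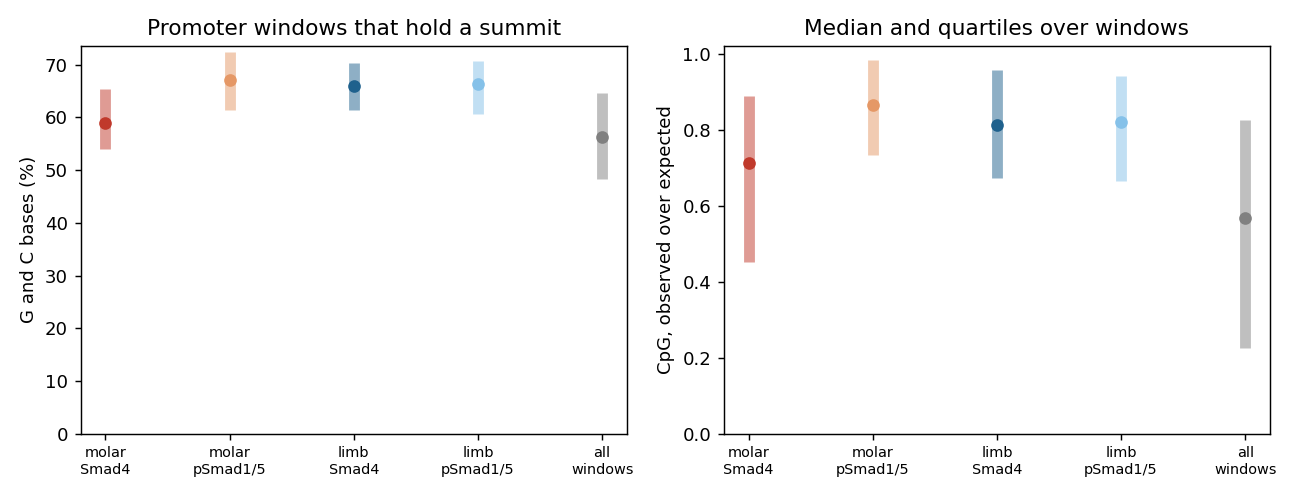
Promoter windows holding the summit of a boundary site, by list, with all windows at the right. Points are medians and bars run between the quartiles, for GC content in percent (left) and the CpG ratio (right). The molar Smad4 median is 59% GC and a ratio of 0.713, against 67% and 0.865 for molar pSmad1/5 and 56.3% and 0.567 for all windows.

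Short words bound by Smads were counted in the same windows on both strands. CAGAC, the core of the Smad binding element, was present in 51.01% of molar Smad4 windows (76 of 149, 42.7 to 59.3%), against 43.02% in molar pSmad1/5 windows, 43.8% in limb Smad4 windows, 47.3% in limb pSmad1/5 windows and 48.4% of all windows. The molar Smad4 interval includes all 4 of those shares. The palindrome GTCTAGAC, which also holds 2 copies of the 4-letter core GTCT, was in 0 of 149 molar Smad4 windows, which allows a share of up to 2.45% as the upper bound of the exact interval, and in 0.226% of all windows. GGCGC, a GC-rich word bound by BMP Smads, was in 57.7% of molar Smad4 windows (49.4 to 65.8%), against 84.8%, 79.4% and 80.4% in molar pSmad1/5, limb Smad4 and limb pSmad1/5 windows and 46.7% of all windows. GGCCG, another such word, was in 53.02% of molar Smad4 windows, against 76.8%, 69.3% and 69.1% in the same lists and 43.9% of all windows. GGCGCC contains GGCGC and was in 15.4% of molar Smad4 windows (10.04 to 22.3%), against 33.1%, 26.4% and 29.1% in those lists and 15.3% of all windows. The TATAAA box was in 9.40% of molar Smad4 windows (5.23 to 15.3%), against 3.63%, 4.15% and 5.35% in the other lists and 12.6% of all windows. CCAAT was in 32.9% of molar Smad4 windows (25.4 to 41.05%), an interval that includes the 31.01%, 34.7% and 31.6% of the other lists and the 38.2% of all windows. The 3 GC-rich words were rarest in molar Smad4 windows among the 4 lists, and so was GC content, whose part in these shares was not tested.

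Molar Smad4 sites at gene boundaries were divided much more evenly between starts and ends than those of the other lists. The gene strand was known for 17491 genes, and 778 sites lay within 1 kb of a start, 551 of an end but no start and 339 of boundaries of unknown direction only. Starts made up 58.5% of the sites of known direction (55.8 to 61.2%). They made up 84.5% in the molar pSmad1/5 list (83.4 to 85.6%), 80.99% in the limb Smad4 list (79.8 to 82.2%) and 79.02% in the limb pSmad1/5 list (77.5 to 80.5%). The molar Smad4 share was 58.7% on the 6 sparsely listed autosomes, 57.98% on the 13 others and 61.8% on X, so that all 3 lay below the other lists.

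The molar Smad4 peaks piled up only slightly at starts and not at ends. Counting each pair of a peak and a gene boundary, 830 pairs lay within 1 kb of a start, 197 of them within 200 bp and 136 between 800 and 1000 bp. Per 100 bp of distance, this came to 49.3 pairs within 200 bp and 29.2 pairs at 4 to 5 kb, a ratio of 1.69. The same ratio was 9.26 for molar pSmad1/5, 9.31 for limb Smad4 and 7.64 for limb pSmad1/5. At ends the density of molar Smad4 pairs within 1 kb was 1.01 times that at 4 to 5 kb, and in the other lists it was 0.900, 1.00 and 0.987 times. At starts 55.8% of molar Smad4 pairs lay downstream, inside the gene (52.3 to 59.2%), against 68.9%, 68.6% and 66.9% in molar pSmad1/5, limb Smad4 and limb pSmad1/5. The median distance from a start was 425.5 bp for molar Smad4, against 296, 292.5 and 295 bp in those lists.

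**Figure D2:**
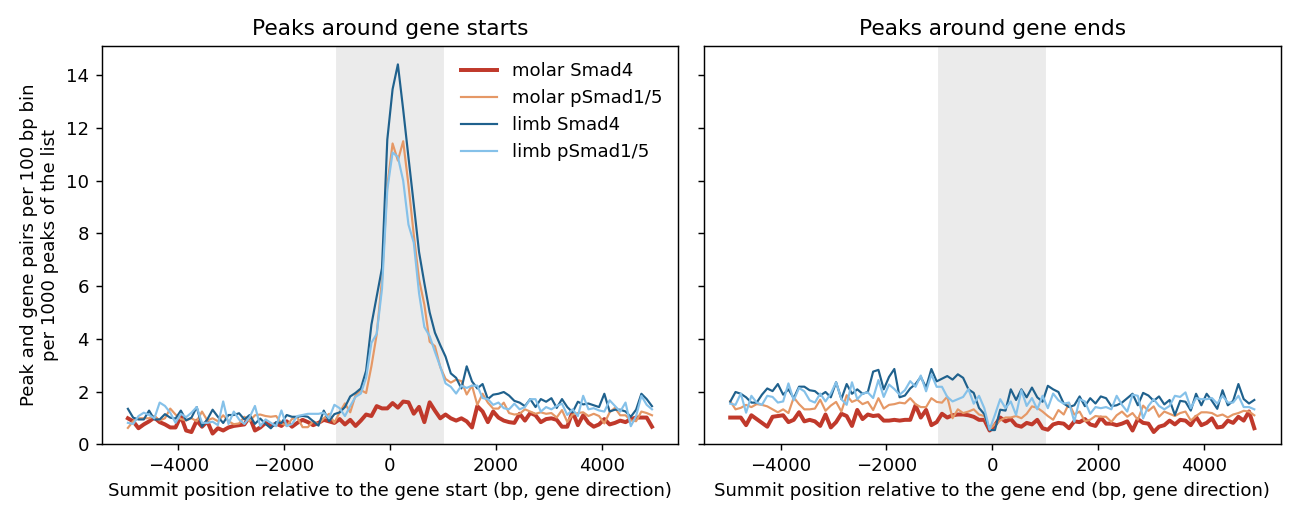
Pairs of a peak summit and a gene start (left) or gene end (right) per 100 bp bin, per 1000 peaks of each list, from 5 kb before to 5 kb after in the direction of the gene; the grey band marks 1 kb. The molar Smad4 line stays low at starts, with a ratio of 1.69 between its density within 200 bp and at 4 to 5 kb, while the other 3 lists rise 7.64 to 9.31 times.

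Within the 1 kb window the sites were spread rather than centred. Their median distance from the nearest boundary was 443 bp, 184 lay within 100 bp and 937 lay inside the nearest gene. The 139 sites in the last 100 bp inside the 1 kb limit had a median score of 3.51, and the 125 peaks in the first 100 bp outside it had 3.46. The sites with summits closest to a boundary were at Sycp2l and Itgb2l (0 bp) and at Mvp, Saysd1 and Armcx3 (1 bp each). There were 150 sites near 2 or more genes. Separately, 49 sites lay within 1 kb of both a start and an end, of the same gene where it is short or of different genes.

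Peak strength barely set the boundary sites apart from the rest of the list. Their median score was 3.48, and that of the other molar Smad4 peaks was 3.37. A score of at least 4 was reached by 460 boundary sites (27.6%) and by 6746 other peaks (20.5%). Within the 6 sparsely listed autosomes the median was 4.33 for both, within the 13 others 3.44 for boundary sites and 3.39 for other peaks, and on X 2.48 and 2.45. Median peak width was 55 bp in both.

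The share of molar Smad4 peaks at gene boundaries varied between chromosomes. It was highest on chromosome 11 at 8.29% (6.13 to 10.9%) and on chromosome 7 at 7.79% (6.84 to 8.83%), and lowest on chromosome 18 at 3.11% (2.33 to 4.06%) and chromosome 12 at 3.29% (2.56 to 4.15%). The 6 sparsely listed autosomes together gave 7.01% (197 of 2809, 6.10 to 8.02%) and the 13 others 4.72% (1321 of 27995, 4.47 to 4.97%). On X the share was 3.96% (147 of 3713). The part of the score floor in these shares was not tested.

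**Figure D3:**
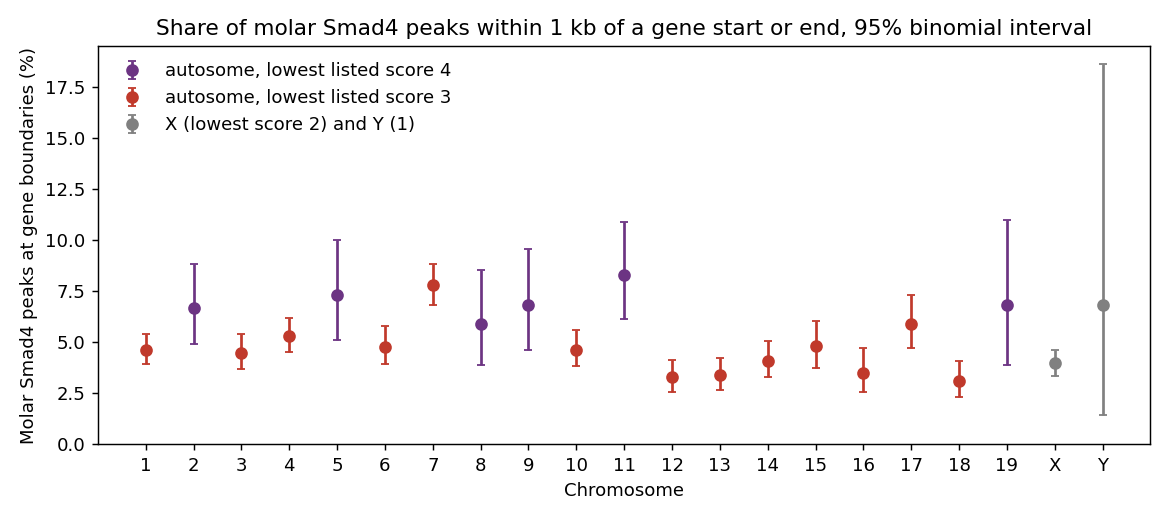
Share of molar Smad4 peaks within 1 kb of a gene start or end on each chromosome, in percent, with exact 95% binomial intervals; colours mark the lowest listed score. Chromosome 11 has 8.29% and chromosome 7 has 7.79%, against 3.11% on chromosome 18.

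The boundary sites marked 1699 genes, which is 7.76% of all protein-coding genes. The other lists marked 20.7% for molar pSmad1/5, 21.8% for limb Smad4 and 15.5% for limb pSmad1/5. On the 6 sparsely listed autosomes 2.72% of genes were marked by molar Smad4 (207 of 7607), and on the 13 others 10.3% (1349 of 13054), so the share of a gene list also depends on the chromosomes it lies on. Most marked genes had a single site: 1588 genes had 1, 103 had 2 and 8 had 3. Both ends were marked in 71 genes. The median length of marked genes was 21377 bp, against 17170 bp for all genes. Genes marked by the other lists were also longer, with medians of 24101 bp for molar pSmad1/5, 20780 bp for limb Smad4 and 20321 bp for limb pSmad1/5.

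The genes with 3 sites were Ahcyl2, Wnk3, Aurkaip1, Gm4131, Hhipl1, Nfe2, Ubd and Ammecr1. Ahcyl2, a relative of adenosylhomocysteinase, had sites of 5.10 and 5.47 score at 131 and 858 bp from its start and one of 4.11 at 599 bp from its end. Wnk3, a kinase that regulates ion cotransporters, had all 3 sites around its start, with scores of 2.24, 3.77 and 3.25. Nfe2, an erythroid and megakaryocyte transcription factor, had scores of 3.17, 3.16 and 3.74. None of the other lists had a peak within 1 kb of either end of Nfe2, Aurkaip1, Gm4131, Ubd or Ammecr1. The same held for 45.9% of all marked genes, so this count does not set the genes with 3 sites apart.

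The highest score among the boundary sites belonged to Fzr1, which encodes the Cdh1 activator of the anaphase-promoting complex. The site reached 9.50, with the summit 702 bp inside the gene from its end (chromosome 10, position 81367581). It overlapped a molar pSmad1/5 peak with a score of 5.41, whose summit was 4 bp away. Sema5b, an axon guidance semaphorin, followed with 6.16 at 52 bp before its start, and molar pSmad1/5 and limb Smad4 had peaks of up to 6.83 and 4.66 at its boundaries. Fam43b had 6.11, Sh2b1, an adaptor of receptor tyrosine kinases, 6.07, and Spaar 5.81. Igf2r, an imprinted receptor that clears insulin-like growth factor 2, had 5.57, beside peaks of 3.31 in molar pSmad1/5, 4.32 in limb Smad4 and 5.05 in limb pSmad1/5. Jade1, a chromatin factor, had 5.54. A site of 5.52 was shared by E2f4, a cell cycle repressor, and Exoc3l. Eng, the BMP9 and BMP10 co-receptor of endothelium, had 5.49.

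Genes of BMP and TGF-beta signalling were marked at about the share of all genes. Of the 36 genes of the BMP pathway, 3 were marked by molar Smad4 (8.33%, against 7.76% of all genes), while molar pSmad1/5 marked 17 (47.2%), limb Smad4 11 (30.6%) and limb pSmad1/5 9 (25%) of them, beside 20.7%, 21.8% and 15.5% of all genes. The 3 were receptors. Eng had its 5.49 site 400 bp inside the gene from the start and a further site with a score of 4.18 at 50 bp, and no peak of another list at either end. Bmpr1a, a type I BMP receptor required in tooth mesenchyme and epithelium, had a site of 3.73 at 133 bp inside the gene, and molar pSmad1/5 had 3 peaks at its boundaries, the best with 4.66. Acvrl1, the endothelial type I receptor ALK1, had a site of 3.76 at 979 bp from a boundary. No ligand of the Bmp and Gdf family (0 of 21) and no Smad gene (0 of 8) had a site. At 7.76% of all genes, families this small would hold few marked genes. Molar pSmad1/5 marked 6 of the 21 and 4 of the 8, beside 20.7% of all genes.

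Of the 30 genes in the TGF-beta pathway 3 were marked (10%, against 7.76% of all genes). Molar pSmad1/5 marked 13 of the 30 (43.3%, against 20.7% of all genes), limb Smad4 14 (46.7%, against 21.8%) and limb pSmad1/5 7 (23.3%, against 15.5%). Inhba, the activin beta-A subunit that tooth mesenchyme sends to the epithelium, had a site of 3.12 at 866 bp inside the gene from its start. Ltbp4, which holds latent TGF-beta in the matrix, had a site of 3.38 inside the gene, 767 bp from its end. Neither gene had a peak of another list at its boundaries, as in 45.9% of all marked genes. Ski, a corepressor that binds Smads, had a site of 4.11 at 428 bp beyond its end, and molar pSmad1/5 had 4 peaks at its boundaries.

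Among 30 targets of BMP Smads 5 were marked (16.7%, against 7.76% of all genes). Molar pSmad1/5 marked 12 of the 30 (40%, against 20.7% of all genes), limb Smad4 13 (43.3%, against 21.8%) and limb pSmad1/5 6 (20%, against 15.5%). Msx2, the BMP-induced homeobox gene of dental mesenchyme and limb, had a site of 3.47 at 347 bp inside the gene from its start, and a limb Smad4 peak of 4.57. Dlx5 had a site of 3.05 at 925 bp from a boundary, and a limb Smad4 peak of 3.29. Hes1, a repressor of the Notch pathway, had a site of 3.07 at 90 bp from a boundary, and peaks in all 3 other lists. Junb, an early response gene, had a site of 4.31 at 859 bp before its start, and it too had peaks in all 3 other lists. None of the 4 Id genes, the classical BMP-Smad targets, had a molar Smad4 site at a boundary, and each of the other lists marked 1 of the 4. At the shares of all genes, a family of 4 would hold few marked genes in any list, so these counts do not set the Id genes apart.

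In the dental mesenchyme list 4 of 40 genes were marked (10%, against 7.76% of all genes), namely Msx2, Dlx5, Inhba and Fgfr1. Molar pSmad1/5 marked 14 of the 40 (35%, against 20.7% of all genes), limb Smad4 19 (47.5%, against 21.8%) and limb pSmad1/5 17 (42.5%, against 15.5%). Fgfr1, an FGF receptor, had a site of 4.13 at 112 bp from a boundary. The 3 of 34 marked genes (8.82%) in the dental epithelium list were Trp63, Krt17 and Cldn1. Trp63, the p63 factor that the ectoderm of the tooth needs, had a site of 3.63 at 348 bp from a boundary. Krt17, a keratin of developing epithelia, had one of 4.11 at 704 bp, and Cldn1, a tight junction protein, one of 3.05 at 615 bp. No other list had a peak at the boundaries of these 3 genes, as in 45.9% of all marked genes, so 3 genes show little. Molar pSmad1/5 marked 11 of the 34 genes (32.4%) and limb Smad4 10 (29.4%), against 20.7% and 21.8% of all genes. Limb pSmad1/5 marked 8 of the 34 (23.5%, against 15.5%). Over the 5 BMP, TGF-beta and dental lists together, 14 of 151 genes were marked (9.27%, against 7.76% of all genes) through 15 sites. Of the 15 sites 0 overlapped a peak of another list, where the share over all boundary sites was 4.56%, so a count of 0 among so few sites is near that share.

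The other pathway lists had 1 to 5 marked genes each, beside a share of 7.76% over all genes. In the Wnt pathway 5 of 35 genes were marked (14.3%): Dvl1, Fzd8, Rnf43, Rspo3 and Tcf7. Rspo3, a secreted amplifier of Wnt signals, had a site of 4.30, and Rnf43, the membrane ligase that Rspo proteins inhibit, one of 4.07. The Notch pathway had 4 of 23 (17.4%), with Hes5 (3.96), Heyl (3.26) and Maml2 (4.06) beside Hes1. The Hes5 and Heyl sites both overlapped a molar pSmad1/5 peak, as did 2.10% of all boundary sites, and 2 sites are few. Molar pSmad1/5 marked 10 of the 23 (43.5%) and limb Smad4 9 (39.1%), against 20.7% and 21.8% of all genes. Limb pSmad1/5 marked 7 (30.4%, against 15.5%). The Notch genes were thus above the share of all genes in every list. The hedgehog pathway had 1 of 17 (5.88%), Sufu, with a score of 4.07. Of 45 limb patterning genes only Msx2 was marked (2.22%, against 7.76% of all genes). Molar pSmad1/5 marked 22 of the 45 (48.9%, against 20.7% of all genes), limb Smad4 16 (35.6%, against 21.8%) and limb pSmad1/5 14 (31.1%, against 15.5%). Of these 45 genes 25 lie on the 6 sparsely listed autosomes.

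Markers of other cell types that tooth tissue could hold were marked as follows, beside the 7.76% of all genes. The endothelium list had 3 of 13, or 23.1% (Eng, Acvrl1 and Pecam1, the last with 4.02), cartilage 2 of 21, or 9.52% (Col9a2 with 5.02 and Matn3 with 3.20) and osteoblasts 2 of 15, or 13.3% (Alpl with 3.26, and Dlx5). In lists of 7 to 15 genes 1 gene moves the share by several percent. Muscle had 1 of 11 (Pax7 with 3.48), neural cells 1 of 9 (Sox10 with 4.78), blood 0 of 8 and immune cells 0 of 7. A peak at a gene does not measure its expression, so these counts say nothing about which cells were present.

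Cell cycle and replication genes had 8 of 43 marked (18.6%, against 7.76% of all genes). They were Mcm7 (5.02), Ccna2 (4.70), Cdc25a (4.08), Cdkn1c (4.06), E2f2 (3.88), Cdk2 (3.76), Mcm3 (3.37) and Cdc20 (3.04). Mcm3 and Mcm7 belong to the replicative helicase, Ccna2 and Cdk2 form a cyclin and kinase pair, and Cdkn1c is an inhibitor of such kinases. With the window narrowed to 500 bp only 1 of 43 was left, which is below the 4.31% of all genes in that window. The Mcm7 site lay 908 bp before that gene's start and 998 bp from the start of Ap4m1.

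Among gene families, subunits of NADH dehydrogenase had the highest share of those with at least 15 genes. Of 37 genes 9 were marked (24.3%, against 7.76% of all genes). Molar pSmad1/5 marked 4 (10.8%, against 20.7% of all genes), limb Smad4 10 (27.0%, against 21.8%) and limb pSmad1/5 8 (21.6%, against 15.5%). Among the 9 genes with a molar Smad4 site were Ndufa4 (4.43), Ndufa8 (4.33) and Ndufs1 (4.25). The family was drawn by name, and Ndufa4 was counted by its name, though its protein was only at first assigned to respiratory complex I, the NADH dehydrogenase. The sites were divided among 3 at starts, 3 at ends and 3 at boundaries of unknown direction. Over all boundary sites these shares were 46.6%, 33.0% and 20.3%. Of the 9 sites 0 overlapped a peak of another list, against 4.56% of all boundary sites. In 6 of the 9 genes no other list had a peak at either end, as in 45.9% of all marked genes. With 9 genes the counts of position, overlap and other lists' peaks do not set the family apart. With each site given to its nearest gene only, 7 of 37 were left (against 7.14% of all genes). With a score of at least 4, 4 of 37 were left (against 2.26% of all genes). Only 7 of the 37 genes lie on the 6 sparsely listed autosomes. On the 13 others the family had 7 of 28 marked, where 10.3% of all genes were marked.

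Potassium channel genes had 17 of 92 marked (18.5%, against 7.76% of all genes), through 19 sites. Molar pSmad1/5 marked 30 of them (32.6%, against 20.7% of all genes), limb Smad4 33 (35.9%, against 21.8%) and limb pSmad1/5 25 (27.2%, against 15.5%). This family was thus above the share of all genes in every list. The highest scores were at Kcnj12 (4.44), Kcnj9 (4.21), Kcna6 (4.20) and Kcnd3 (4.18), which encode inward rectifier and voltage-gated subunits. Of the 19 sites 3 lay at starts, 8 at ends and 8 at boundaries of unknown direction. Over all boundary sites these shares were 46.6%, 33.0% and 20.3%. On the 13 autosomes with the lower score floor the family had 15 of 59, where 10.3% of all genes were marked.

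Other families lay closer to the 7.76% of all genes. Solute carriers had 35 of 364 (9.62%), Tmem genes 20 of 235 (8.51%), collagens 6 of 44 and Fox genes 5 of 44. Among collagens Col9a2 had the highest score at 5.02 and Col15a1 had 4.22, and among Fox genes Foxe3 had 4.27 and Foxo1 3.86. The ribosomal protein name pattern had 8 of 81, one of which, Rps6kl1, is a kinase-like gene and no ribosomal protein. Hox genes had 2 of 39 (5.13%), Hoxc10 (3.10) and Hoxc11 (3.23), against 19 by molar pSmad1/5 (48.7%, where 20.7% of all genes were marked). Of the 39 Hox genes 19 lie on the 6 sparsely listed autosomes, where 2.72% of all genes were marked. Proteasome subunits had 0 of 39, beta-defensins 0 of 42, Irx genes 0 of 6 and Lhx genes 0 of 8. Of these families 16, 35, 3 and 5 genes lie on the sparsely listed autosomes. At such shares families of these sizes would hold few marked genes.

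Large clustered receptor families were low. Olfactory receptors had 13 of 1110 (1.17%), against 7, 12 and 5 in molar pSmad1/5, limb Smad4 and limb pSmad1/5. Vomeronasal receptors had 6 of 353 (1.70%), against 2, 0 and 1 in those lists. Molar Smad4 thus marked as many or more of these genes as lists that marked 3384 to 4770 genes overall. The highest olfactory receptor score was 5.39, at Olfr1427. The list depth differs by chromosome, and 568 of the olfactory receptor genes lie on the sparsely listed autosomes. On the 13 other autosomes 12 of 536 olfactory receptor genes were marked, where 10.3% of all genes were marked. Of the 353 vomeronasal receptor genes 11 lie on the sparsely listed autosomes. The part of list depth in these low shares was not tested.

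**Figure D4:**
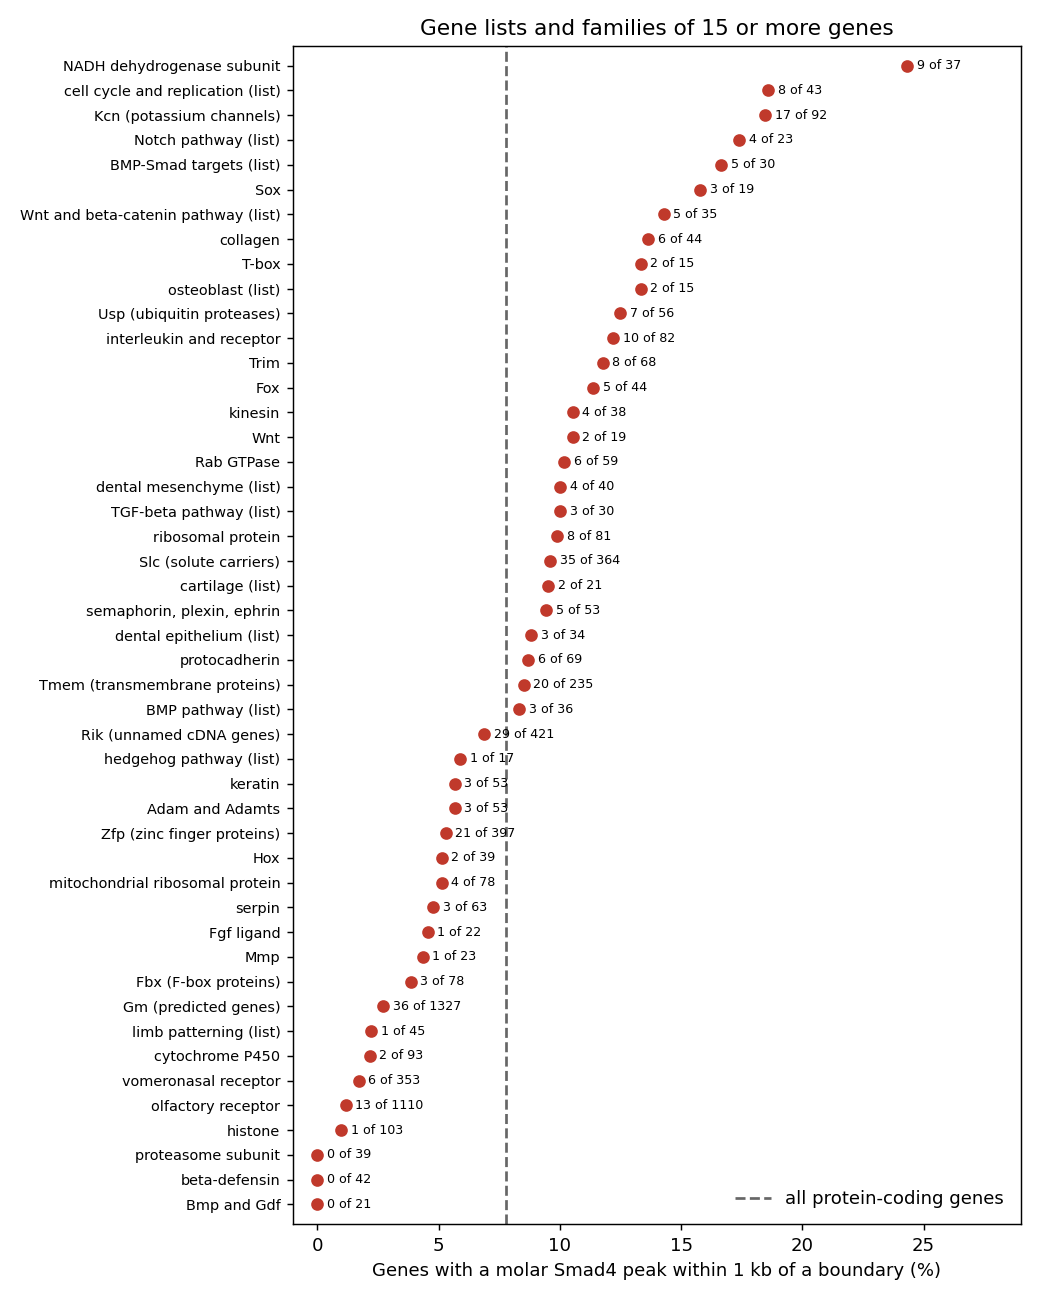
Share of genes with a molar Smad4 peak within 1 kb of a boundary, in percent, for gene lists and name families of 15 or more genes, with counts beside each point. The dashed line is the 7.76% of all protein-coding genes; NADH dehydrogenase subunits stand at 24.3% and olfactory receptors at 1.17%.

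Over all sets, 13 of 17 lists and 19 of 41 families lay above the share of all genes, with medians of 10% and 5.66%. In the other lists 13 to 15 of the 17 lists and 22 to 23 of the 41 families lay above their own shares of all genes, so a count of this kind is not particular to molar Smad4. The families with no marked gene numbered 7. Sets with few members move by several percent with 1 gene, so the order of neighbours in the plot of gene sets carries little weight.

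Boundary sites overlapped peaks of the other lists more often than the remaining molar Smad4 peaks did, though rarely in either case. An overlap of at least 1 bp with any other list was found for 76 of 1668 boundary sites (4.56%, 3.61 to 5.67%) and for 371 of 32893 other peaks (1.13%, 1.02 to 1.25%). With molar pSmad1/5 the shares were 2.10% and 0.532%, with limb Smad4 1.62% and 0.383%, and with limb pSmad1/5 1.08% and 0.240%. The overlap was found at 7.20% of sites at starts (56 of 778, 5.48 to 9.25%) and 1.09% of sites at ends (6 of 551, 0.401 to 2.35%). Only 4 sites overlapped peaks of 2 other lists and 0 overlapped all 3. The other lists are themselves denser at starts, and the part of position in this difference was not tested.

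Among the overlapping sites with the highest scores, after Fzr1 came a site of 4.90 shared by Zfc3h1 and Thap2, which overlapped limb Smad4, and one of 4.86 at Sclt1, a centriole gene, which overlapped limb pSmad1/5. Sowahc had a site of 4.80 overlapping limb Smad4. Ppp1r9b, which encodes the actin-binding protein spinophilin, had one of 4.68 whose molar pSmad1/5 partner scored 5.13, and Slc5a5, the iodide transporter, had one of 4.64 overlapping limb Smad4. Sites at Adamtsl1 (4.61) and at Card9 and Dnlz (4.49) overlapped limb Smad4, and one at Ndrg1 (4.57) overlapped limb pSmad1/5. The Otub1 and Uchl5 sites printed above scored 4.21 and 4.35, with molar pSmad1/5 partners of 3.06 and 2.47 whose summits were 4 and 48 bp away. At the Ipo13 site, of 4.65, the limb Smad4 summit was 39 bp away.

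**Figure D5:**
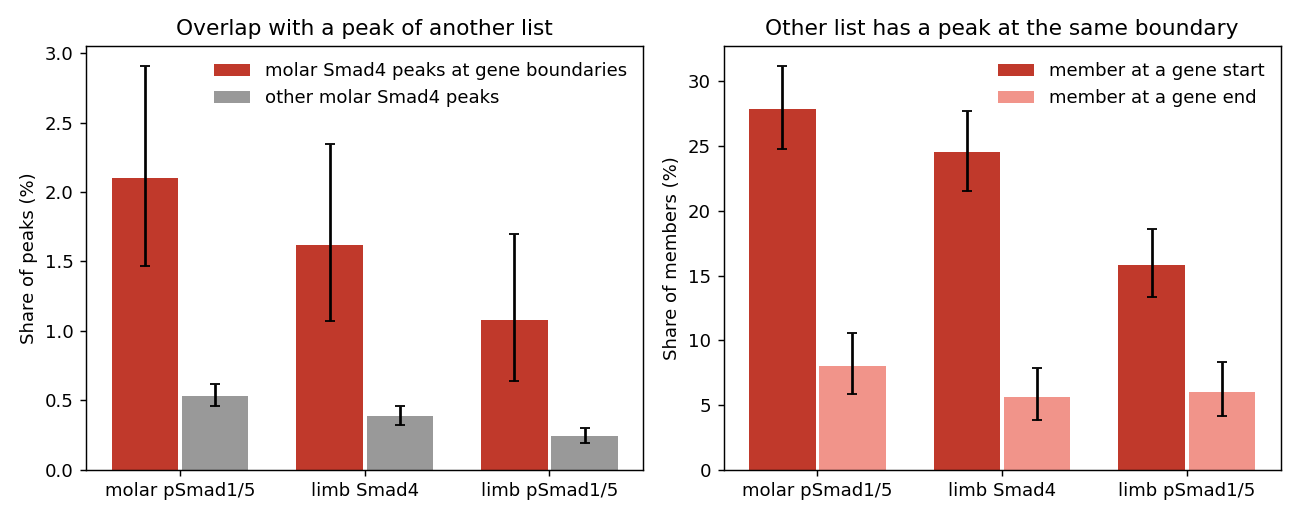
Left, share of molar Smad4 peaks that overlap a peak of another list by at least 1 bp, for sites at gene boundaries (red) and for other molar Smad4 peaks (grey). Right, share of boundary sites at a gene start (dark) or gene end (light) where another list has a peak within 1 kb of the same boundary; bars carry exact 95% binomial intervals. With molar pSmad1/5 the left bars are 2.10% and 0.532%, and the right bars 27.9% and 7.99%.

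Another list had a peak within 1 kb of the same boundary for 591 boundary sites (35.4%, 33.1 to 37.8%). This held for 48.8% of sites at starts (380 of 778, 45.3 to 52.4%) and for 17.2% of sites at ends (95 of 551, 14.2 to 20.7%). By list the shares were 19.3% for molar pSmad1/5, 16.7% for limb Smad4 and 11.3% for limb pSmad1/5. Counted by gene, 509 of the 1699 marked genes (29.96%) were also marked by molar pSmad1/5, which is 11.2% of that list's genes. Limb Smad4 shared 482 (28.4% of the marked genes and 10.1% of its own) and limb pSmad1/5 shared 334 (19.7% and 9.87%). Of all protein-coding genes molar pSmad1/5 marked 20.7%, limb Smad4 21.8%, limb pSmad1/5 15.5% and molar Smad4 7.76%. In 779 marked genes (45.9%) no other list had a peak at either end. The same share was not counted over all genes, nor was the share of all boundaries with a peak of another list.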

How the data were processed

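Each of the 4 peak lists came from 1 library. Peak calling was done by the authors with BCP (transcription factor mode, per the labels) on mm10. Per the submitters' processing notes, bcl2fastq, Bowtie2, SAMtools, deepTools and bedtools took part; versions and settings were not stated, nor were the use of inputs, duplicate handling or region filters. Per the labels, a list row holds position, length, enrichment score, p-value and summit. The score, deposited by the authors, ranks peaks within a list here. The p-value deposited by the authors was below 0.001 throughout and entered no test.

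Summits were used as deposited, and peak starts were taken as counted from 0, so a position may be off by 1 base. Distances run from the summit to the outermost start and end of each RefSeq protein-coding gene. The gene table gives no strand. Strand came from the RefSeq promoter table, by gene ID, and genes without an entry there count as unknown direction. A site near a start and an end was classed as a start, while counts of pairs hold each boundary. Overlap means at least 1 shared base. Motifs were searched on both strands. In all, 17 gene lists and 41 name families were counted, and all their listed genes matched by symbol. The members and lists were chosen with earlier results of these data known.

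Text names the genes of the 10 highest-scoring sites and of the 10 highest-scoring overlapping sites, all marked genes of the BMP, TGF-beta and dental lists, up to 4 per other list or family, up to 8 with several sites, up to 8 sites near several genes, and the 5 nearest. Some genes that this rule selects are not reported here. Further genes, among them those of the printed windows, were chosen after their values were seen. Distance and overlap counting was tested on simulated data. Tools were Python 3.11.15 with scipy 1.17.1, pandas 2.3.3, numpy 2.4.6 and, for figures, matplotlib 3.10.9.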

Additional observations from a re-analysis of the deposited data

How the results depend on the processing

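No paired analysis was possible because each tissue and antibody has 1 library. Narrowing the window to 500 bp left 921 sites (2.66% of the list) at 943 genes, 26.4% of them with another list's peak at the same boundary. Widening it to 2 kb gave 2953 sites (8.54%) at 2943 genes, 3.45% overlapping another list and 44.9% with a peak at the same boundary. A score of at least 4 in every list left 460 sites (6.38%) at 495 genes, with 1.30% overlapping (against 0.267% of other peaks) and 13.48% at a shared boundary; fewer peaks remain in all lists by construction. The 6 sparsely listed autosomes alone held 197 sites (7.01%) at 207 genes, 38.1% with a shared boundary, and 20 gene lists and families above the share of all genes. The median score of boundary sites minus that of other peaks was 0.0317 with the score minimum, 0.00580 on those 6 autosomes and 0.0595 on the 13 others. Calling peaks shared when summits lay within 200 bp gave 10.7%, against 2.95% of other peaks. Under the window, score, chromosome and nearest-gene alternatives the share of starts among sites of known direction stayed at 57.4 to 61.5% in molar Smad4 and at 71.8 to 89.3% in the other lists. Starts made up 46.6% of all boundary sites and 58.5% when sites of unknown direction were left out. The alternatives without X and Y and with sites of known direction only were added after seeing the data. The cause of each shift was not tested. Unknown depth, 1 library per group and the uneven score floor limit every comparison between lists.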

Other observations

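Some of the boundary sites lay between 2 genes that start or end close together. A site of 5.02 lay 157 bp before the start of Lzic and 182 bp inside Nmnat1, which makes the cofactor NAD in the nucleus, and no other list had a peak at the boundaries of either gene. A site of 5.26 lay 305 bp before the start of Adprhl2, an enzyme that removes ADP-ribose, and 113 bp beyond the end of Tekt2, a tektin of cilia and flagella. At Baiap2l1 and Bri3 a site of 5.10 lay near the ends of both genes. Such a site cannot be assigned to one of its 2 genes.

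Further families with marked genes included Rab GTPases with 6 of 59, Usp genes with 7 of 56, Trim genes with 8 of 68 and interleukins with their receptors with 10 of 82, or 10.2%, 12.5%, 11.8% and 12.2% beside 7.76% of all genes. Molar pSmad1/5 marked 21, 14, 18 and 10 of them, beside 20.7% of all genes. Rab23, a negative regulator of hedgehog signalling, had a site of 4.03 at 354 bp before its start and a molar pSmad1/5 peak of 3.71. Semaphorin, plexin and ephrin genes had 5 of 53 (9.43%), against 21 by molar pSmad1/5 (39.6%). Plxnd1, the semaphorin receptor of endothelium, had a site of 3.32 at 83 bp from its end, and molar pSmad1/5 had 4 peaks at its boundaries. Mmp9, a matrix metalloproteinase, had sites of 4.24 and 4.05, and no other list had a peak at its boundaries.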
